A study of Mus musculus with 9 samples.

Results

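The minichromosome maintenance (MCM) helicase family was followed in regenerating mouse liver through its 9 genes, *Mcm2* to *Mcm10*, which were the rows carrying those gene names among the 43346 genes of the deposited RNA-Seq table. All 9 passed the filter on low counts that left 15024 genes for testing. Whole liver of C57/BL6 mice (C57BL/6J in the study's methods) aged 12 weeks was sampled in 3 groups of 3 libraries. The baseline was liver resected at surgery from mice given vehicle (normal saline, i.p.). The other groups were liver remnants 40 h after 70% partial hepatectomy, from mice given vehicle or NSC-87877 (NSC), a small molecule inhibitor of the phosphatase SHP2 that also acts on SHP1. Mice received 7.5 mg/kg of NSC 2 times a day. The sample records and the results of the study place the first dose 12 h before surgery, and only its methods place it on the preceding day. Mice were male, and the lobes removed were the left lateral and both median lobes. Both 40 h groups were therefore set against the same 3 vehicle baselines, and whether a baseline and a remnant with the same number came from 1 mouse is not stated. Library totals ran from 31187349 to 33943842 counts at baseline, from 27956396 to 42887589 in vehicle remnants and from 23997363 to 30201051 in NSC remnants. NSC library 1 stood apart from the other NSC libraries in mitotic genes and in several marker sums, so the calls, levels per length, shares and ratios of the NSC group are also given without it.

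MCM2 to MCM7 are the subunits of a ring-shaped hexamer that is loaded in pairs onto replication origins in G1, a step called licensing, and that unwinds DNA in S phase once CDC45 and the GINS complex have joined it to form the CMG helicase. MCM8 and MCM9 form a separate helicase that works in homologous recombination, and MCM10, which has no helicase domain, binds the CMG helicase and is needed for origin firing. Most hepatocytes of the adult liver are quiescent, and after partial hepatectomy they re-enter the cell cycle and replicate their DNA in near synchrony.

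The promoters of the family are shown first because E2F factors are the best known regulators of licensing genes. RefSeq sequence (GRCm38.p6) was at hand for 8 of the 9 genes, with 9 promoters in all, and *Mcm4* was not matched. The 250 bases before each start were searched on both strands for the E2F words TTTCCCGC, TTTCGCGC, TTTGCCGC and TTTGGCGC, for the CHR element TTTGAA, and for the CCAAT box CCAAT. E2F words occurred in 3 of the 8 genes, *Mcm5*, *Mcm6* and *Mcm7*, against 1.86% of all 32851 promoters. The CCAAT box occurred in all 8 against 33.8% of all promoters, and the CHR element in 1, *Mcm2*, against 15.99%. The 160 bases directly before the start of the 2 genes with the largest rise, *Mcm5* and *Mcm6*, and of *Mcm10*, which fell, are printed 5′ to 3′ on the gene's own strand, with E2F words in capitals. The windows are chr8:75109349-75109508 (plus strand), chr1:128359706-128359865 (minus strand) and chr2:5012792-5012951 (minus strand).

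Mcm5: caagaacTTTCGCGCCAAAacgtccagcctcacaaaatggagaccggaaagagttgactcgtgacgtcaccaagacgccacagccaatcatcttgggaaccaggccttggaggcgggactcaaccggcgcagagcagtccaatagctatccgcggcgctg

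Mcm6: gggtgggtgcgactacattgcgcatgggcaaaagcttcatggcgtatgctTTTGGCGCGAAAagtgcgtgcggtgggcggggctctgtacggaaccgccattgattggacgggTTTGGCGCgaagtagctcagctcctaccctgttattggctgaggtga

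Mcm10: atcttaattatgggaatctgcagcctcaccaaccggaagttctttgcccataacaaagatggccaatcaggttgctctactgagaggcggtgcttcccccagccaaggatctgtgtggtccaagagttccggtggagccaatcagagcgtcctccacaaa

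In *Mcm5*, 2 overlapping E2F words, 1 on each strand, covered the bases 142 to 153 before the start. *Mcm6* had 3 words. Of these, 2 overlapped between 99 and 110 bases before the start, and the remaining one lay 40 to 47 bases before it. *Mcm7* had 1 word, 158 to 165 bases before the start of 1 of its 2 listed promoters. The *Mcm10* window held 2 CCAAT boxes and none of the E2F letters searched. No E2F word was found for *Mcm2*, *Mcm3* and *Mcm8*, which also rose at 40 h, or for *Mcm9*, which was not called. *Mcm7*, which had a word, rose the least of the hexamer genes. A match of letters is a description of the sequence, and binding was not measured.

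The first comparison asked how the family changed in the vehicle remnant 40 h after hepatectomy. All 6 hexamer genes and *Mcm8* rose, *Mcm9* did not pass the test, and *Mcm10* fell. Thus 7 of 9 members were called higher and 1 lower (edgeR quasi-likelihood test, with adjusted p, by Benjamini-Hochberg over all 15024 genes, under 0.05), whereas 12.7% of all genes tested were called higher and 11.0% lower. The median log2 fold change of the 9 members was 1.98, and that of all genes tested was 0.01. By CPM, the 2 groups did not overlap for 8 of 9 members and for 46.3% of all genes tested. In whole liver, fewer cells of a type and less RNA per cell cannot be told apart. Levels are given as CPM, the counts of a gene relative to the library total after TMM scaling, listed for libraries 1, 2 and 3 of each group.

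*Mcm5* (chromosome 8, 75109528 to 75128439, plus strand), a hexamer subunit beside the gate through which the ring opens, rose the most. Its baseline levels were 2.05, 2.596 and 3.70 CPM, its vehicle remnant levels 42.99, 52.7 and 37.7 CPM, and its NSC remnant levels 37.6, 42.5 and 37.4 CPM. Each remnant library was thus more than 10 times the highest baseline library. The log2 fold change in vehicle remnants was 3.999 ± 0.224 (SE, n = 3 per group; 95% interval 3.51 to 4.49; edgeR adjusted p = 3.22e-06), a 15.99-fold rise.

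*Mcm6* (chromosome 1, 128331590 to 128359664, minus strand) encodes the subunit that CDT1 contacts during loading, and it had the next largest rise. Baseline levels were 4.42, 5.92 and 6.07 CPM, against 40.5, 49.7 and 43.9 CPM in vehicle remnants and 62.2, 65.8 and 48.1 CPM in NSC remnants. In 2 of the 3 NSC libraries *Mcm6* was above every vehicle remnant library, while the third lay between them. The vehicle remnant exceeded baseline by 3.03 ± 0.18 on the log2 scale (SE, n = 3 per group; edgeR adjusted p = 3.22e-06).

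*Mcm2*, *Mcm3* and *Mcm4* formed a group with smaller and nearly equal rises. *Mcm2* (chromosome 6, 88883475 to 88898780, minus strand), the subunit on the other side of the gate, had 3.38, 3.57 and 5.15 CPM at baseline, 19.9, 20.9 and 17.4 CPM in vehicle remnants and 17.0, 19.8 and 15.2 CPM in NSC remnants. *Mcm3* (chromosome 1, 20802968 to 20820312, minus strand), which meets MCM5 in the ring, had 4.93, 5.25 and 6.93 CPM at baseline, 23.8, 29.0 and 18.8 CPM in vehicle remnants and 25.8, 27.4 and 18.6 CPM in NSC remnants. *Mcm4* (chromosome 16, 15623897 to 15637400, minus strand), a target of the origin-firing kinase CDC7-DBF4, had 4.39, 3.42 and 5.58 CPM at baseline, 15.7, 20.01 and 17.1 CPM in vehicle remnants and 24.3, 26.2 and 17.1 CPM in NSC remnants. No remnant library of these 3 genes overlapped baseline. Their log2 fold changes in vehicle remnants were 2.27 ± 0.20, 2.06 ± 0.22 and 1.98 ± 0.22 (SE, n = 3 per group), with edgeR adjusted p of 3.39e-05, 0.00011 and 0.00014.

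*Mcm7* (chromosome 5, 138164583 to 138172422, minus strand), whose introns host the microRNA genes *Mir25*, *Mir93* and *Mir106b*, was the hexamer gene with the highest baseline and the smallest rise. It had 15.5, 13.1 and 17.1 CPM at baseline, 34.2, 47.2 and 28.3 CPM in vehicle remnants and 33.1, 46.4 and 39.0 CPM in NSC remnants. Both remnant groups lay above baseline and overlapped each other, and the vehicle remnant was higher than baseline by 1.26 ± 0.20 on the log2 scale (SE, n = 3 per group; edgeR adjusted p = 0.00123). The gene overlaps *Cops6* by 64 bases and *Ap4m1* by 421 bases on the other strand. Libraries were made with a stranded kit, but whether counting used the strand is not stated. In vehicle remnants *Cops6* had a log2 fold change of 0.03 (edgeR adjusted p = 0.9), and *Ap4m1* was lower, at -0.57 (edgeR adjusted p = 0.0421).

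**Figure D1:**
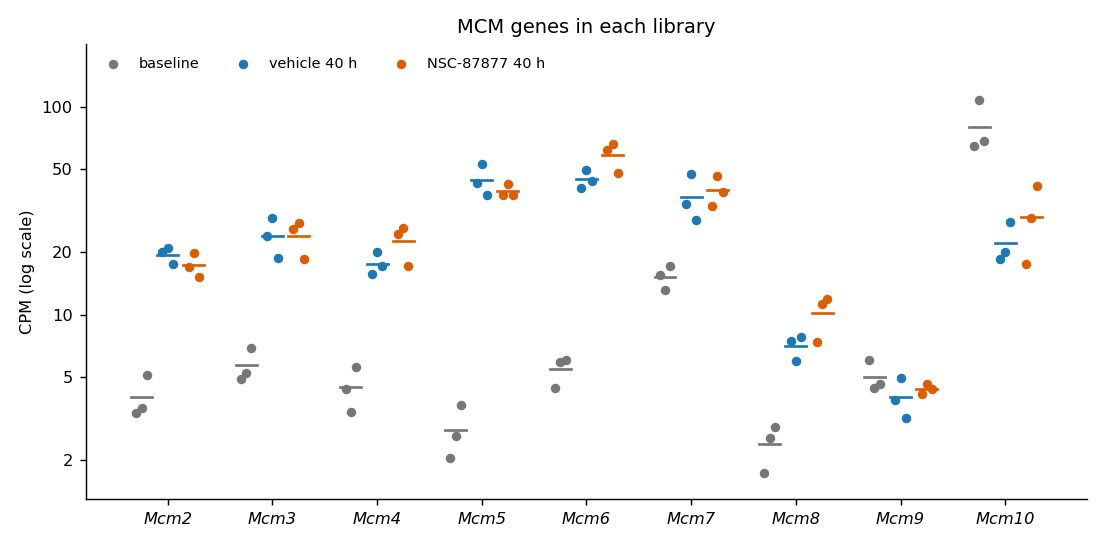
CPM of the 9 MCM genes in each of 9 libraries on a log axis, with 1 point per library and a bar at the mean of the 3 libraries of a group. Points of both 40 h groups lie above all baseline points for *Mcm2* to *Mcm8*, overlap them for *Mcm9*, and lie below them for *Mcm10*, which had 64.5 to 107.3 CPM at baseline.

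The MCM8-MCM9 helicase genes did not move together. *Mcm8* (chromosome 2, 132816141 to 132844197, plus strand) had 1.74, 2.57 and 2.87 CPM at baseline, 7.43, 5.99 and 7.83 CPM in vehicle remnants and 7.35, 11.2 and 11.9 CPM in NSC remnants. *Mcm9* (chromosome 10, 53536329 to 53630439, minus strand) had 6.03, 4.46 and 4.62 CPM at baseline, 3.90, 4.98 and 3.17 CPM in vehicle remnants and 4.14, 4.65 and 4.38 CPM in NSC remnants. Both remnant groups of *Mcm8* lay above baseline and overlapped each other, while the 3 groups of *Mcm9* overlapped. In vehicle remnants the log2 fold change was 1.56 ± 0.26 for *Mcm8* and -0.32 ± 0.23 for *Mcm9* (SE, n = 3 per group), with edgeR adjusted p of 0.00141 and 0.34 and, for *Mcm9*, a 95% interval from -0.83 to 0.18. The gene that encodes the loader of this helicase, *Hrob*, is listed under its earlier name *BC030867*. Its levels went from 0.190, 0.122 and 0.0660 CPM at baseline to 3.35, 3.99 and 2.95 CPM in vehicle remnants and 1.77, 6.32 and 5.28 CPM in NSC remnants. At baseline it had only 2 to 6 counts per library, so the size of its rise is imprecise. It was called higher in both remnant groups, by 4.72 ± 0.55 and 5.09 ± 0.55 on the log2 scale (SE, edgeR adjusted p = 0.000194 and 8.41e-05), and by 5.48 in NSC remnants without NSC library 1. *Mcmdc2*, a meiotic relative with an MCM domain, had 0 to 10 counts per library and did not enter the test.

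*Asf1a*, a histone chaperone gene, lies on the other strand, and its span overlaps that of *Mcm9* over 12469 bases. Overlap of their exons was not examined, so whether unstranded counting could mix the signals was not tested. *Asf1a* had 4.83, 5.53 and 4.98 CPM at baseline, 6.51, 4.51 and 6.42 CPM in vehicle remnants and 6.48, 12.7 and 11.7 CPM in NSC remnants. *Asf1a* was called higher in NSC remnants, by 1.01 ± 0.26 on the log2 scale (SE, n = 3 per group; edgeR adjusted p = 0.0103), and by 1.26 without NSC library 1 (edgeR adjusted p = 0.000573), while *Mcm9* was not. *Mcm8* starts 86 bases from *Trmt6* and *Mcm4* 466 bases from *Prkdc*, both on the other strand. *Trmt6* rose by 0.63 on the log2 scale in vehicle remnants (edgeR adjusted p = 0.017), and *Prkdc*, a DNA repair kinase gene, had a log2 fold change of 0.15 (edgeR adjusted p = 0.588).

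*Mcm10* (chromosome 2, 4989714 to 5012791, minus strand) was the only member that fell. It had 64.5, 107.3 and 68.3 CPM at baseline, 18.5, 20.01 and 27.9 CPM in vehicle remnants and 17.4, 29.0 and 41.6 CPM in NSC remnants. Every remnant library was below every baseline library, and the NSC libraries spread by 2.39-fold from lowest to highest. The log2 fold change was -1.86 ± 0.32 in vehicle remnants (SE, n = 3 per group; 95% interval -2.58 to -1.14; edgeR adjusted p = 0.00316) and -1.45 ± 0.32 in NSC remnants (adjusted p = 0.0066). The level is a sum over the gene. GENCODE M21 lists 10 transcripts for *Mcm10*, of which 2 are protein coding and 7 retain an intron, and which of them gave the counts was not tested.

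The second comparison set the NSC remnants against the same baselines, so its values are not independent of the first. Again 7 of 9 members were called higher and 1 lower, where 18.2% of all genes tested were called higher and 16.5% lower. By CPM, 8 of 9 members and 47.1% of all genes tested did not overlap baseline. The log2 fold changes of the hexamer genes were 2.10 ± 0.20 for *Mcm2*, 2.07 ± 0.22 for *Mcm3*, 2.34 ± 0.22 for *Mcm4*, 3.82 ± 0.22 for *Mcm5*, 3.42 ± 0.19 for *Mcm6* and 1.37 ± 0.20 for *Mcm7* (SE, n = 3 per group). *Mcm8* was higher by 2.08 ± 0.26 (edgeR adjusted p = 0.000189), and *Mcm9* differed by -0.20 ± 0.23 (edgeR adjusted p = 0.536). Without NSC library 1 the count was again 7 higher and 1 lower, the hexamer genes ranged from 1.49 for *Mcm7* to 3.85 for *Mcm5*, and *Mcm10* was at -1.18 (edgeR adjusted p = 0.0072). *Mcm5* had the largest and *Mcm10* the lowest log2 fold change in both remnant groups.

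The third comparison asked whether NSC changed the family at 40 h, and no member passed the test. By the edgeR quasi-likelihood test 0 of 9 members and 0.0399% of all genes tested (6 genes, each lower in NSC) were called. DESeq2 called 0 of 9 members, where it called 724 of 24325 genes, or 2.98%. That total holds all genes with at least 1 count, including any left without an adjusted p. It is therefore not like the 15024 genes of edgeR. By CPM, both remnant groups overlapped for all 9 members, whereas they did not for 22.5% of all genes tested. At an unadjusted p under 0.05 by edgeR the count was 1, *Mcm6*, where 2929 of the 15024 genes tested reached it. *Mcm6* was 0.39 ± 0.17 higher in NSC on the log2 scale (SE, n = 3 per group; 95% interval 0.03 to 0.75; edgeR adjusted p = 0.225). *Mcm8* had a difference of 0.52 (95% interval -0.01 to 1.05), *Mcm4* of 0.36 (-0.09 to 0.81) and *Mcm10* of 0.41 (-0.30 to 1.11). *Mcm7*, *Mcm9* and *Mcm3* had differences of 0.11 (-0.32 to 0.54), 0.12 (-0.38 to 0.63) and 0.01 (-0.44 to 0.45). The differences of *Mcm5* and *Mcm2* were -0.18 (-0.60 to 0.24) and -0.16 (-0.56 to 0.23). For the 6 hexamer genes these intervals left room for at most 0.81 in either direction on the log2 scale, which is less than the rise of any of them from baseline.

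**Figure D2:**
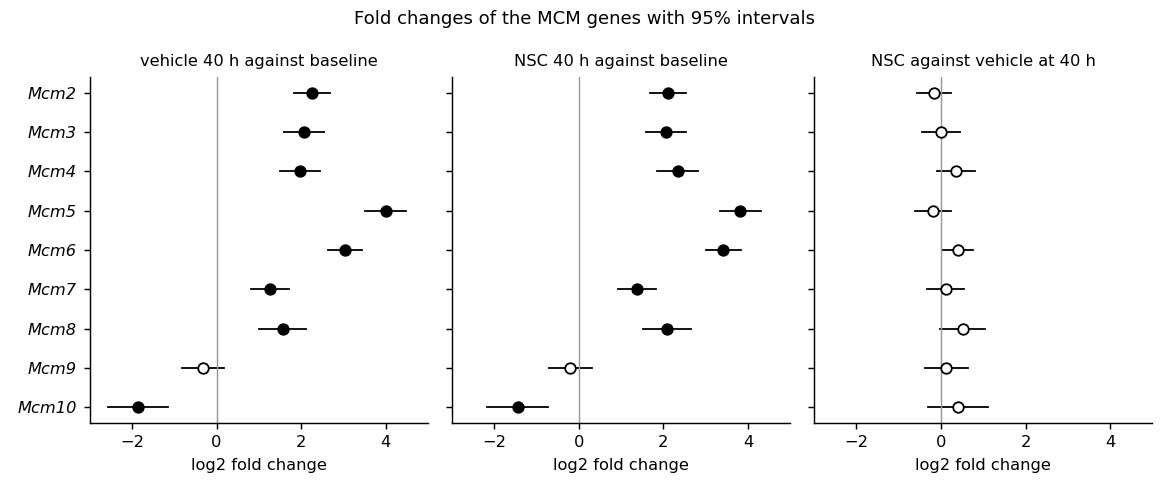
Log2 fold change (horizontal axis) of the 9 MCM genes in the 3 comparisons, with 95% intervals as lines and filled points where the edgeR adjusted p was under 0.05. Filled points appear for 8 of 9 genes in both comparisons with baseline, with *Mcm10* alone to the left, and for 0 of 9 in the comparison of NSC with vehicle.

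One NSC library stood apart in its mitotic genes but not in the summed hexamer genes. The summed level of 10 mitotic genes (cyclin B genes, mitotic kinases and the like) was 178 CPM in NSC library 1 and 1020 and 840 CPM in the other 2, against 323 to 412 CPM in vehicle remnants and 5.58 to 6.51 CPM at baseline. *Ccnb1*, the cyclin of mitotic entry, had 8.31 CPM in NSC library 1 against 115.4 and 108.1 CPM in NSC libraries 2 and 3. *Mcm2* to *Mcm7* summed to 199.97, 228.1 and 175.3 CPM in the same NSC libraries, to 177.1, 219.6 and 163.1 CPM in vehicle remnants and to 34.7, 33.8 and 44.5 CPM at baseline. *Mcm8* (7.35 CPM) and *Mcm10* (17.4 CPM) were lowest in NSC library 1 among the NSC libraries, and its *Mcm10* level was also below every vehicle remnant. The highest NSC library was thus 5.74 times the lowest in mitotic genes and 1.301 times the lowest in hexamer genes. Without NSC library 1, the direct comparison called 994 of 15390 genes (6.46%) and 9 of the 10 mitotic genes, and 0 of 9 MCM genes. *Mcm6* then had a difference of 0.35, *Mcm8* of 0.70, *Mcm10* of 0.67 and *Mcm3* of -0.05 on the log2 scale, with edgeR adjusted p from 0.0809 to 0.903.

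**Figure D3:**
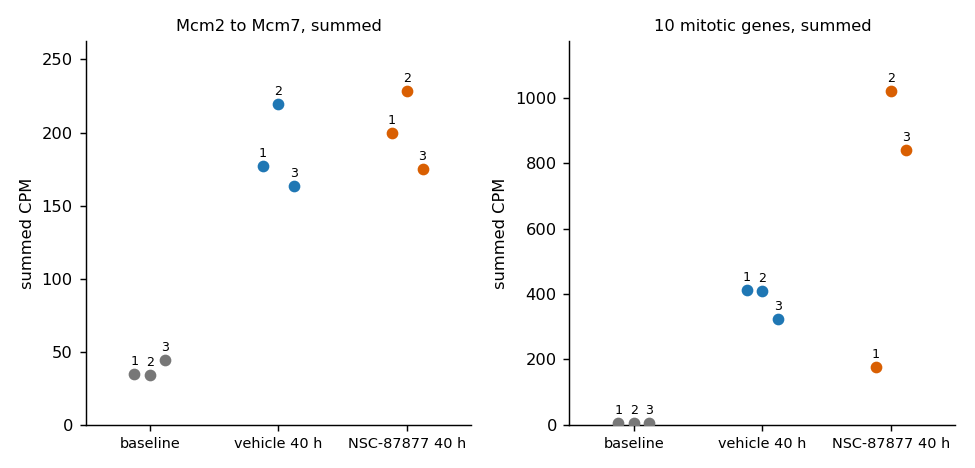
Summed CPM of *Mcm2* to *Mcm7* (left) and of 10 mitotic genes (right) on linear axes from 0, with 1 numbered point per library. NSC library 1 lies at 178 CPM in the right panel, below every vehicle remnant library, and at 199.97 CPM in the left panel, within the range of the others.

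Cell type markers differed between groups as well. All 8 hepatocyte markers were present, with a summed level of 116622 to 121718 CPM at baseline, 89588 to 125759 CPM in vehicle remnants and 94220 to 112449 CPM in NSC remnants, and none was at 0. Most of this sum was *Alb*, with 87930 to 95847 CPM at baseline, 75127 to 103465 CPM in vehicle and 81425 to 92637 CPM in NSC remnants. Of the 8 hepatocyte markers, 3 were called lower in vehicle remnants and 4 in NSC remnants, against 11.0% and 16.5% of all genes tested, and 2 in NSC remnants without NSC library 1. The 8 macrophage markers summed to 152 to 223 CPM at baseline, 149 to 272 CPM in vehicle remnants and 295 to 489 CPM in NSC remnants, with 2 called higher in vehicle remnants and 5 in NSC remnants, against 12.7% and 18.2% of all genes tested, and 4 in NSC remnants without NSC library 1. That library had the highest macrophage sum, at 489 CPM against 295 and 311 CPM in the other NSC libraries. The 6 neutrophil markers summed to at most 18.7 CPM in any library, with 2 of 5 tested called higher in vehicle remnants, 4 in NSC remnants and 3 in NSC remnants without NSC library 1. Of the 5 cholangiocyte markers 4 were called higher in vehicle remnants, 3 in NSC remnants and 2 in NSC remnants without NSC library 1. *Spp1* made up 80.1% to 90.6% of their summed level in every library, and *Epcam* was not called, with 0.924 to 1.23 CPM at baseline, 0.648 to 0.923 CPM in vehicle and 0.441 to 1.37 CPM in NSC remnants. For the neutrophil and cholangiocyte lists too, 12.7% of all genes tested were called higher in vehicle and 18.2% in NSC remnants. Without NSC library 1, 17.8% of all genes tested were called higher and 15.9% lower in NSC remnants. The part of these cell types in the changes of the MCM genes was not tested.

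Levels were compared between genes per length, as FPKM. FPKM rests on the deposited exonic length of a gene, so the order of genes and their shares depend on it. That length was 3370 bases for *Mcm2* against 6956 in GENCODE M21, 4868 against 9113 for *Mcm9* and 3422 against 3993 for *Mcm5*. For the other members both lengths were equal. At baseline *Mcm10* was the highest member at 10.05 ± 2.97 FPKM and *Mcm7* next at 3.33 ± 0.46 FPKM (mean ± SD, n = 3), and neither overlapped its neighbour in this order. The other 7 members lay between 0.62 and 1.47 FPKM on average, with each neighbour in the order overlapping the next. In vehicle remnants the order was *Mcm5* at 12.6 ± 1.69, *Mcm6* at 9.29 ± 0.26, *Mcm7* at 7.98 ± 1.70, *Mcm3* at 6.16 ± 1.149, *Mcm2* at 5.61 ± 0.62 and *Mcm4* at 4.74 ± 0.23 FPKM. *Mcm10* at 2.80 ± 0.63, *Mcm8* at 1.87 ± 0.36 and *Mcm9* at 0.80 ± 0.15 FPKM followed. *Mcm5* was apart from *Mcm6*, the other hexamer genes overlapped their neighbours, and the last 3 members were each apart from the member above them. In NSC remnants *Mcm6* (13.4 ± 2.08 FPKM) and *Mcm5* (12.2 ± 0.54 FPKM) overlapped at the top, *Mcm9* (0.96 ± 0.02 FPKM) was again the lowest, and *Mcm8* was at 2.89 ± 0.63 FPKM. Over NSC libraries 2 and 3 alone *Mcm6* averaged 12.7, *Mcm5* 12.2, *Mcm10* 4.81, *Mcm8* 3.24 and *Mcm9* 0.97 FPKM.

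The make-up of the hexamer transcripts shifted at 40 h. The 6 subunits are present in equal number in the ring, and the share of each gene in the summed FPKM of the 6 was taken per library. These shares rest on the deposited lengths. Within a library they are also tied to each other, so a larger share of 1 gene lowers the others. *Mcm7* held 40.8%, 35.2% and 34.6% at baseline, 16.9%, 19.0% and 15.3% in vehicle remnants and 14.8%, 18.2% and 19.9% in NSC remnants. *Mcm5* held 6.98%, 9.04% and 9.66% at baseline, 27.6%, 27.4% and 26.4% in vehicle remnants and 21.7%, 21.6% and 24.7% in NSC remnants. The largest share thus passed from *Mcm7* to *Mcm5* in vehicle remnants, and *Mcm5* was the smallest of the 6 at baseline. *Mcm6* went from 12.6 ± 2.21% at baseline to 20.2 ± 2.04% in vehicle and 24.7 ± 1.57% in NSC remnants, and was at 23.9% over NSC libraries 2 and 3 alone (mean ± SD, n = 3). *Mcm2* held 11.7% to 13.7% at baseline and 11.0% to 12.98% in vehicle remnants, and its 9.998% to 10.2% in NSC remnants lay below every library of both other groups. The ratio of the highest to the lowest of the 6 genes was 4.44 ± 1.23 at baseline, 2.65 ± 0.29 in vehicle and 2.49 ± 0.13 in NSC remnants. Their summed level was 9.07 ± 1.55, 46.4 ± 5.29 and 53.9 ± 6.05 FPKM in the same order. FPKM is not TMM scaled, and in TMM-scaled CPM the sums were 37.7 ± 5.94, 186.6 ± 29.4 and 201.1 ± 26.4. Without NSC library 1 the NSC ratio was 2.41 and the NSC sum 52.96 FPKM.

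**Figure D4:**
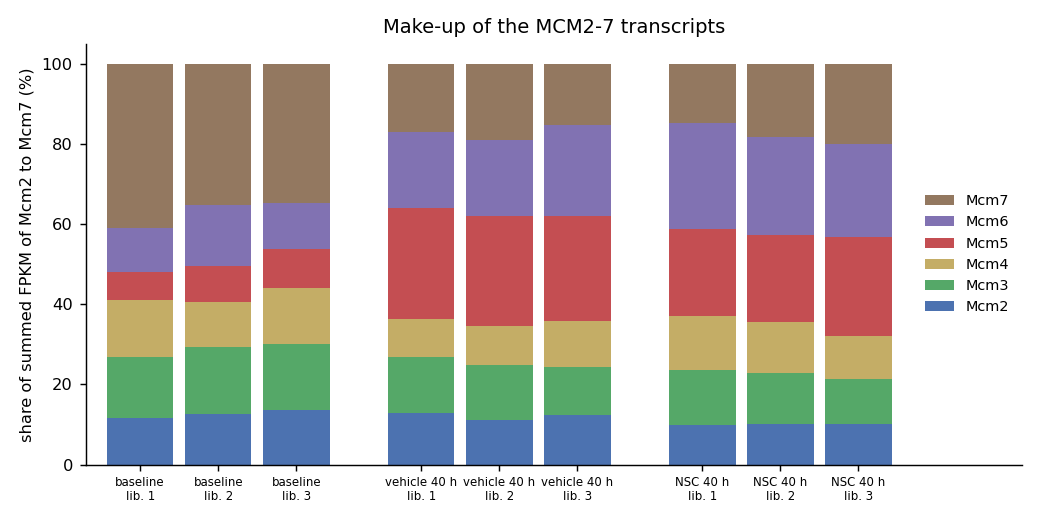
Share of each of *Mcm2* to *Mcm7* in their summed FPKM (vertical axis, %), with 1 stacked bar per library. *Mcm7* fills 34.6% to 40.8% of the bar at baseline and 14.8% to 19.9% at 40 h, while *Mcm5* fills 6.98% to 9.66% and then 21.6% to 27.6%.

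Each member was also expressed as a log2 ratio to the mean of the hexamer genes of its library, or of the other 5 for a hexamer gene, which removes the scaling of libraries. Ratios of hexamer genes are therefore tied to each other within a library. A lower ratio can go with a rise in CPM, as for *Mcm2*, *Mcm3*, *Mcm4* and *Mcm7* in vehicle remnants. In vehicle remnants against baseline all 9 ratios had groups that did not overlap, with *Mcm5* and *Mcm6* higher and the other 7 lower. The groups were also apart for 94.9% of the 14811 genes tested that had FPKM above 0 in every library, when each was set against the hexamer mean. In NSC remnants against baseline 7 of 9 ratios did not overlap, against 94.4% of those genes. In vehicle remnants the ratio of *Mcm5* went from -0.96 ± 0.23 to 0.94 ± 0.04, that of *Mcm7* from 1.58 ± 0.22 to 0.14 ± 0.19 and that of *Mcm10* from 2.88 ± 0.55 to -1.40 ± 0.48 (mean ± SD, n = 3). In NSC against vehicle the count was 3 of 9, against 15.9% of those genes. *Mcm6* was higher by 0.36, and *Mcm5* and *Mcm2* were lower, with differences of -0.31 and -0.31. Without NSC library 1 these differences were 0.30, -0.27 and -0.29, and the ratio of *Mcm8* was also apart, higher by 0.63. Groups of 2 and 3 libraries come apart more readily than groups of 3. The share of all genes was not computed for that omission. An exact 2-sided permutation test of 3 against 3 libraries cannot go below p = 0.1. Every ratio whose groups of 3 did not overlap reached that value, with 0.142 after adjustment over the 27 ratios computed, which are not independent. The other ratios had p from 0.2 to 0.8 by this test, with 0.4 for *Mcm8* in NSC against vehicle with all libraries.

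The other genes that load and fire origins were counted by role from a list of 30, all of which were tested. In vehicle remnants 24 of 30 were called higher and 0 lower, where 12.7% of all genes tested were called higher and 11.0% lower. The median log2 fold change of the 30 was 1.54. In NSC remnants 27 were called higher and 0 lower, where 18.2% of all genes tested were called higher and 16.5% lower. Their median there was 1.89, and that of all genes tested was 0.01 in both. The medians were the same with *Orc1*, which had no counts at baseline, at its lower bound. In the direct comparison edgeR called 0 of 30, where it called 0.0399% of all genes tested. At an unadjusted p under 0.05 by edgeR the count was 8 of 30, where 2929 of the 15024 genes tested reached it. DESeq2 called 2, *Orc5* and *Tipin*, where it called 2.98% of the 24325 genes with at least 1 count. Without NSC library 1 the edgeR count was 6, all higher in NSC (*Gins1*, *Dbf4*, *Orc5*, *Tipin*, *Prim1* and *Gmnn*), where 3.73% of the 15390 genes tested were called higher. Against baseline 27 of 30 were called higher in NSC remnants without that library, where 17.8% of all genes tested were. The counts by role given next for NSC remnants were equal with and without it. The shares of all genes tested given above apply to the counts by role as well.

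The origin recognition complex, on which the hexamer is loaded, had 3 of 6 genes called higher in vehicle and 5 of 6 in NSC remnants. *Orc1* had 0 counts in all 3 baseline libraries, 19 to 35 counts in vehicle and 33 to 50 in NSC remnants, which was at least 7.77-fold and 14.1-fold higher than a floor of 3 counts per library. *Orc3* had 20.4, 17.9 and 18.4 CPM at baseline and 16.7, 13.6 and 18.5 CPM in vehicle remnants (log2 fold change -0.22 ± 0.16, edgeR adjusted p = 0.337). Of the loading factors and their regulators, 2 of 4 were called higher in vehicle and 3 of 4 in NSC remnants. *Cdc6*, which loads the hexamer with CDT1, went from 0.0632, 0.428 and 0.0990 CPM to 3.38, 3.63 and 2.55 CPM in vehicle remnants (log2 fold change 3.98 ± 0.52, edgeR adjusted p = 0.000399). It had only 2 to 14 counts per baseline library. *Mcmbp*, whose product binds MCM subunits outside the ring, was at 23.7 to 26.9 CPM at baseline and 27.5 to 30.01 CPM in vehicle remnants (log2 fold change 0.18 ± 0.13, edgeR adjusted p = 0.334).

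The firing kinase and firing factors were called higher in 7 of 7 cases in vehicle and 6 of 7 in NSC remnants. *Ticrr*, which brings CDC45 to licensed origins, had 0 to 1 counts per baseline library and 1.99 to 3.52 CPM in vehicle remnants. *Donson* rose the least, by 0.76 ± 0.22 on the log2 scale (edgeR adjusted p = 0.0271). Of the CMG partners, 4 of 5 were called higher in vehicle and 5 of 5 in NSC remnants. *Gins2* rose by 4.28 ± 0.40, from 0.411, 0.550 and 0.792 CPM to 10.8, 12.6 and 10.9 CPM in vehicle remnants (edgeR adjusted p = 8.42e-05), and *Gins4* had a log2 fold change of 0.38 ± 0.18 (edgeR adjusted p = 0.151). All 8 fork factors and polymerase genes rose in both groups, from *Tipin* at 1.26 ± 0.20 to *Clspn*, the checkpoint mediator claspin, at 5.26 ± 0.50 in vehicle remnants (SE, n = 3 per group; edgeR adjusted p = 0.00108 and 6.69e-05). *Clspn* had only 3 to 10 counts per baseline library, so the size of its rise is imprecise. *Mcm10*, a firing factor by function, was lower in both groups, where 0 of these 30 genes was called lower.

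**Figure D5:**
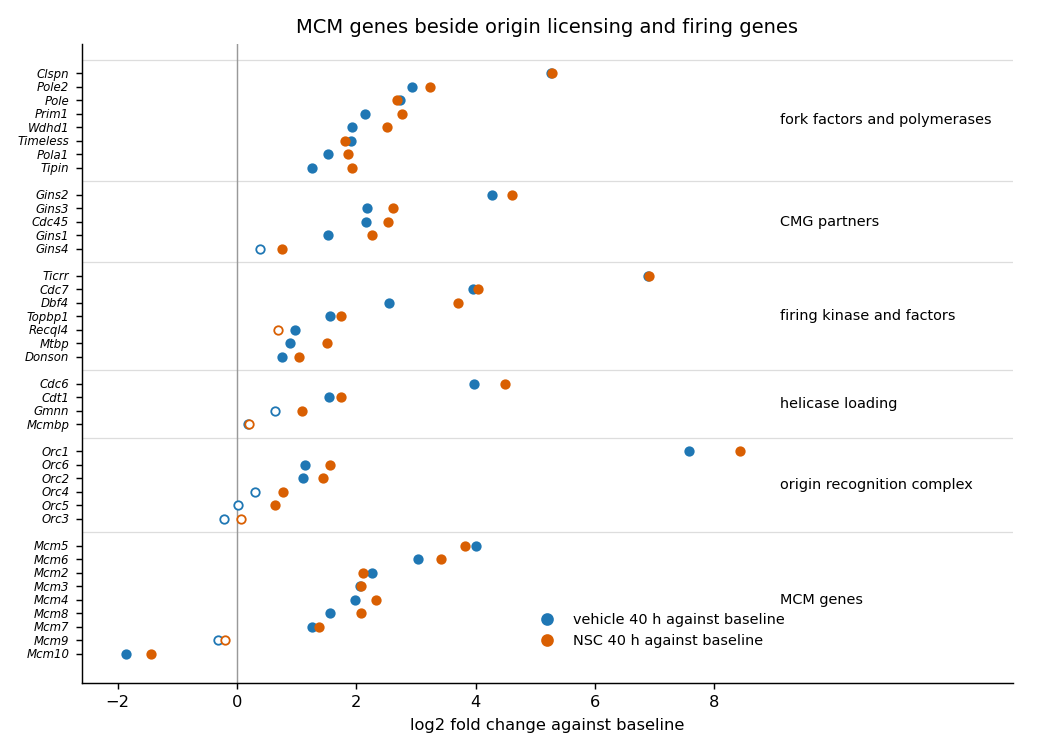
Log2 fold change against baseline (horizontal axis) of the 9 MCM genes and 30 origin licensing and firing genes by role, in vehicle (blue) and NSC (orange) remnants, filled where the edgeR adjusted p was under 0.05. *Mcm10* is the lowest point in both colours at -1.86 and -1.45. The position of *Orc1* depends on the fit because its baseline counts were 0.

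Across the 9 libraries, the hexamer genes closest to their shared profile were *Mcm2*, *Mcm3* and *Mcm4*, with a root mean square difference in centred log2 CPM of 0.18, 0.22 and 0.23. *Mcm6* was at 0.39, *Mcm8* at 0.47, *Mcm7* at 0.57, *Mcm5* at 0.70, *Mcm9* at 1.31 and *Mcm10* at 2.01. Of the genes outside the family, *Lig1*, the DNA ligase of Okazaki fragments, was nearest at 0.14, with 3.35, 3.54 and 3.73 CPM at baseline, 17.6, 23.8 and 16.1 CPM in vehicle remnants and 16.9, 20.6 and 18.2 CPM in NSC remnants. It was followed by *Rrm1*, the large subunit of ribonucleotide reductase (0.25), *Tcf19* (0.27), *Cdc45* (0.27), *Brca1* (0.28), *Nrm* (0.29), *E2f8*, a repressor of the E2F family (0.31), *Il33*, a cytokine gene (0.31), *Cep128* (0.31) and *Wdhd1* (0.32). The profile includes the members' own values, and the 9 libraries share groups, so these distances are given as a description.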

How the data were processed

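Whole liver RNA of 9 mouse samples was profiled by paired-end RNA-Seq on libraries from a stranded mRNA kit. The authors aligned reads with STAR (version 2.6.1 in the submitters' processing notes) within MAP-RSeq, counted them on genes with featureCounts of Subread 1.5.1, and deposited raw counts per gene and library, without pooling. FPKM values, also deposited, were made by the authors from the same counts, the gene length and the total of the library, and recomputation differed by at most 4.96e-08%. The notes and methods name hg38, but the deposited identifiers are mouse ones. Of 43346 genes, 42462 were matched by identifier to GENCODE M21 (GRCm38), 78.8% of them at the same position, as were 6 of the 9 MCM genes, and coordinates are given as deposited.

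Counts were fitted in R 4.3.3 with edgeR 4.0.16 (filterByExpr, TMM, robust quasi-likelihood, 1 fit of 9 libraries with the condition as only term). The standard error is the absolute log2 fold change divided by the square root of F. Adjusted p-values are Benjamini-Hochberg values over 15024 genes. The fit was tested on simulated counts for vehicle against baseline: of 200 genes changed 2-fold among 14778 it recovered 77, and of 200 changed 4-fold among 14795 it recovered 166. Alternatives were DESeq2 1.42.0, RLE or no composition scaling, other count filters, the 2 groups alone, the replicate number as a term, an absolute log2 fold change over 1.5, and each library left out. Tables and plots used Python 3.11.15, pandas 2.3.3 and matplotlib 3.10.9. Within groups no library duplicated another (chi-square per gene 25.1 to 152). The floor of 3 counts covers counting error only, and the study describes the libraries as biological replicates, though the labels name no mouse per sample.

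The members and gene lists were chosen with earlier results of these data known. All 9 members are named, with the genes of smallest and largest change in each role, neighbours that overlap or start within 1000 bases, and the 10 genes nearest to the mean profile of *Mcm2* to *Mcm7* in centred log2 CPM (prior count 2). Genes called in the direct comparison under another setting were named after their values were seen. Markers of endothelial, stellate, lymphoid and erythroid cells were also summed.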

Additional observations from a re-analysis of the deposited data

How the results depend on the processing

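The 8 calls among the MCM genes in each comparison with baseline, and the 0 calls between NSC and vehicle, held under every other normalization, count filter, tool, choice of groups and library left out. With an absolute log2 fold change over 1.5 also required, 7 members passed in vehicle and 6 in NSC remnants. With the replicate block 8, 8 and 0 members were called. Same-numbered libraries of baseline and vehicle remnants correlated at 0.081, 0.070 and -0.048 in their deviations from group means. Only these could come from 1 mouse. Libraries of different numbers were not correlated for reference, so the values do not settle whether samples were paired. The numbers were not taken to pair the samples, and the block changed no call of a member. The log2 difference between NSC and vehicle had no settled sign for *Mcm3* (-0.14 to 0.17), *Mcm7* (-0.045 to 0.34) and *Mcm9* (-0.018 to 0.31) when libraries were left out in turn. Of the origin licensing and firing genes 18 to 25 were called in vehicle and 21 to 27 in NSC remnants over the alternatives. The lowest counts came with a filter of at least 10 counts in every library and with the fold threshold. Between NSC and vehicle DESeq2 called 2 of these genes (2.98% of all genes with at least 1 count). Leaving out libraries gave 0 to 6, with 6 without NSC library 1. Chosen after seeing the data, the same omission raised the mitotic genes called from 0 to 9 of 10, and the levels per length, shares, ratios and marker counts without that library were also added then. With CPM, which is not scaled by length, the ratio of the highest to the lowest hexamer gene was 5.75 at baseline and 3.38 in NSC remnants. In vehicle remnant libraries 1, 2 and 3 the highest and lowest were 42.99 and 15.7, 52.7 and 20.01, and 43.9 and 17.1 CPM. In NSC remnants they were 62.2 and 17.0, 65.8 and 19.8, and 48.1 and 15.2 CPM. By CPM the spread was thus wider in NSC than in vehicle remnants, while by FPKM it was not. Precision is limited by 3 libraries per group and, for *Mcm5* and *Mcm8* at baseline, by 55 to 112 counts per library.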

Other observations

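Other cell type markers moved less evenly across the groups in which the MCM genes were compared. Of 6 stellate cell markers 3 were called higher in vehicle remnants and 1 in NSC remnants (edgeR, adjusted p under 0.05), where 12.7% and 18.2% of all genes tested were called higher, and 0 in NSC remnants without NSC library 1. Their sums were 175 to 212 CPM at baseline, 263 to 325 CPM in vehicle and 209 to 338 CPM in NSC remnants. Of 6 endothelial markers 1 was called lower in vehicle remnants and 0 in NSC remnants, where 0 had an unadjusted p under 0.05, against 11.0% and 16.5% of all genes tested. Without NSC library 1 the count was 2 lower in NSC remnants, against 15.9% of all genes. The endothelial sums were 173 to 180, 110 to 177 and 127 to 226 CPM. NSC library 1 had the highest sum of the NSC libraries in both lists, with 338 CPM against 209 and 223 CPM for stellate markers and 226 CPM against 127 and 143 CPM for endothelial markers. Lymphoid markers summed to at most 7.62 CPM in any library, with 1 of 5 tested called lower in vehicle remnants, against 11.0% of all genes tested. Erythroid markers had 2 of 6 tested called lower in both remnant groups and in NSC remnants without NSC library 1, and their sums were 239 to 338, 124 to 209 and 152 to 260 CPM.

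The microRNA genes inside *Mcm7* were barely counted in these mRNA libraries. *Mir93* had 0 counts in all 9 libraries, *Mir25* at most 4 and *Mir106b* at most 4, so they say nothing of the mature microRNAs.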
